A study of Apera spica-venti with 7 samples.

Results

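The end of germination was set against its start in *Apera spica-venti*, the loose silky bentgrass, an annual grass weed of cereal fields. At BBCH 09 the coleoptile, the sheath around the first leaf, breaks the surface, and at BBCH 05 the radicle has just left the seed. The BBCH scale numbers the growth stages of a plant. All transcripts with a best protein homologue at an e-value of at most 0.1 were taken from both libraries, and those whose homologue carried 1 of 9 green-algal species codes were left out. This gave 40398 rows at BBCH 09 and 36168 rows at BBCH 05, together 76566 of the 250476 rows kept in the 7 libraries of the series by the same rule.

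Both libraries came from whole germinated seeds, with the remains of the grain, the root and the shoot in one extract. The seeds were a mixture of herbicide-susceptible Danish populations, so both stages shared the same meta-population, and were germinated on wet filter paper in a climate cabinet with no herbicide treatment. Each library was made from 0.7 g of seeds and pooled RNA of several individuals. There was 1 library per stage, so no spread between replicates could be given and no test was made. A pair of further seed libraries lay between the ends in time, BBCH 07, when the coleoptile leaves the caryopsis, and BBCH 08, when it lengthens. Leaf, root and stem of plants at BBCH 34 to 36 served as further context.

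A cereal seed germinates on its own stores. Globulins, prolamins and starch in the endosperm and oil in the embryo and aleurone are broken down by proteases, amylases and lipases, while the radicle and then the coleoptile grow by cell expansion, which needs wall-loosening enzymes, and later by cell division. In the field a seedling that leaves the seed coat meets soil microbes and dry air, whereas these seeds lay on wet filter paper. The protein families known for this phase include class III peroxidases, which act on phenolics and hydrogen peroxide in the cell wall, and cytochrome P450s, haem enzymes that build cutin, hormones and defence compounds and also break down herbicides. Receptor kinases sense signals at the cell surface, and the resistance proteins with a nucleotide-binding site and leucine-rich repeats (NLRs) sense pathogen effectors inside the cell.

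What was counted was rows, and 1 row is 1 assembled transcript with a predicted peptide. Read depth had been evened out and similar contigs merged before deposit, so the number of rows of a family is the number of different transcripts assembled for it and is not a level of expression. One gene can give several rows when it was assembled in pieces. Fewer cells of a type and less RNA per cell cannot be told apart in such libraries. Each item was compared by the ratio of its share of annotated rows at BBCH 09 to its share at BBCH 05, with 0.5 added to both counts. The intervals beside the ratios are exact binomial 95% intervals for 1 item at a time, not adjusted for the number of items, and cover counting error only. A ratio of at least 2 or at most 0.5 on at least 10 rows over both ends was taken as a difference, a rule of size and not a test.

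The ends of germination resembled each other in most families. Of 1604 Gene Ontology (GO) names on at least 10 rows, 97.6% had shares within 2-fold of each other, as had 97.2% of 212 enzyme codes and 92.4% of 291 informative descriptions. The items past the rule were small. None of these GO names had more than 21 rows over both ends, no enzyme code more than 16 and no description more than 35. By this rule, 1.37% of GO names had the higher share at BBCH 09 and 0.998% the lower one. For enzyme codes these figures were 1.42% and 1.42%, and for descriptions 5.5% and 2.06%. The other 5 pairs of seed stages, which share these libraries, gave 2.02% to 3.10% of GO names in both directions together, against 2.37% for BBCH 09 over BBCH 05. For descriptions the other pairs gave 4.73% to 9.57%, against 7.56% for the ends.

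Cytochrome P450s, peroxidases, receptor kinases and disease resistance proteins had a larger share of rows at the end of germination than at its start. Each was 1 of 36 lists made of words in the homologues' descriptions, of which 4 (11.1%) had an interval wholly above 1 and 0 (0.0%) one wholly below 1. The words of the lists had been fitted to the deposited descriptions. The 4 intervals did not all hold up to other ways of counting. Among rows with a peptide of at least 200 amino acids all 4 held 1, and counted as different proteins those of receptor kinases and disease resistance proteins held 1. The 36 lists took 42.9% of the 9528 rows with an informative description at BBCH 09 and 41.3% of 8180 at BBCH 05. Informative descriptions were themselves slightly more frequent at BBCH 09, at 23.6% of rows against 22.6% at BBCH 05, a ratio of 1.04 (1.01 to 1.07).

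**Figure D1:**
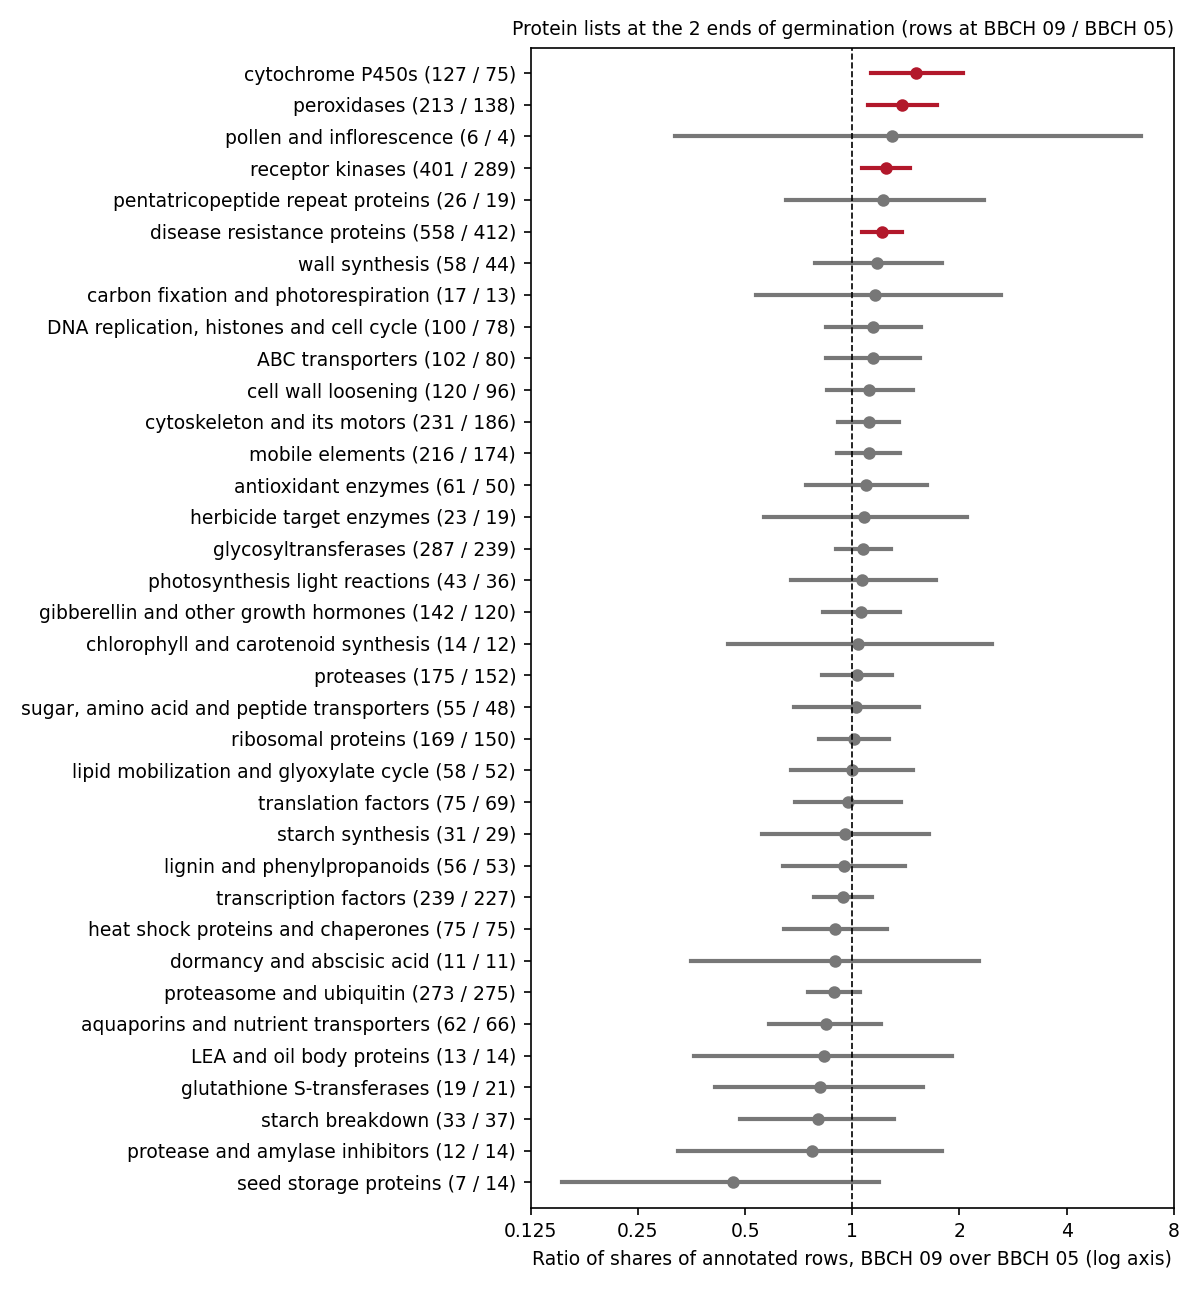
Ratio of the share of annotated rows at BBCH 09 to that at BBCH 05 for 36 protein lists, on a log axis, with exact binomial 95% counting intervals as lines. The rows at BBCH 09 and BBCH 05 stand beside each name, and the 4 red lists are those whose interval lies wholly above 1.

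The cytochrome P450s had 127 rows at BBCH 09 and 75 rows at BBCH 05, a ratio of 1.51 (1.13 to 2.04). At BBCH 07 and 08 they had 96 and 92 rows, which is 0.241% of the rows at both of these stages, so the middle stages lay between the ends. The rows at BBCH 09 matched 80 different proteins and those at BBCH 05 matched 45, of which 38 were the same. Over all proteins matched, the shared ones were 66.2% of those at BBCH 09 and 72.2% of those at BBCH 05. Of 34 P450 names in total, 24 were found at both ends, 8 at BBCH 09 only and 2 at BBCH 05 only. Of all 3971 informative descriptions, 3308 were found at BBCH 09 and 3127 at BBCH 05, and their overlap is given with the alternatives below.

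The P450 names with the most rows had ratios near 1. CYP71D7 had 17 rows at BBCH 09 and 15 at BBCH 05, and CYP89A2 had 12 and 13, with ratios of 1.01 and 0.83. CYP99A2 had 11 rows at BBCH 09 and 1 row at BBCH 05, a ratio of 6.86 whose interval ran from 1.43 to 424. The CYP99 family is known in rice for its part in making momilactones, diterpenoid phytoalexins. The stages between gave 3 and 4 rows of CYP99A2, and leaf, root and stem gave 8, 7 and 3. The CYP86 and CYP94 families, known for the omega-hydroxylation of fatty acids that enter cutin and suberin, together had 18 rows at BBCH 09 and 6 at BBCH 05. Their ratio was 2.55 (1.02 to 8.27), and BBCH 07 and 08 had 7 and 14 rows. Among single names, CYP86B1 and CYP94A1 each had 6 rows at BBCH 09 and 2 at BBCH 05, and CYP86A2 had 5 and 2. The CYP71 family as a whole, which in grasses holds enzymes of benzoxazinoid defence compounds, had 36 rows at BBCH 09 and 24 at BBCH 05 (1.33, 0.78 to 2.35). CYP81D1 had 7 rows at BBCH 09 and 2 at each of the 3 earlier stages. The CYP71 excess lay in peptides under 200 amino acids, with 33 rows at BBCH 09 and 17 at BBCH 05. The longer CYP71 rows went the other way, with 3 at BBCH 09 and 7 at BBCH 05. Of longer rows, CYP71D7 had 1 at BBCH 09 and 6 at BBCH 05 (0.22, 0.003 to 1.30), and CYP89A2 had 2 and 5. CYP99A2 had 4 and 1 longer rows (2.85, 0.38 to 187), and CYP86 and CYP94 together had 3 and 1. The intervals given here for longer rows held 1.

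The peroxidases had 213 rows at BBCH 09 and 138 rows at BBCH 05, a ratio of 1.38 (1.11 to 1.72). Almost all were named only peroxidase, with 210 and 135 rows. At BBCH 07 and 08 the list had 140 and 144 rows, 0.351% and 0.378% of all rows, close to the 0.382% of BBCH 05, whereas BBCH 09 stood at 0.527%. Roots of grown plants had 195 peroxidase rows, leaf 69 and stem 87. The rows at BBCH 09 matched 141 proteins and those at BBCH 05 matched 96, with 75 in common. The shares in common over all proteins are those given above beside the P450s. Other antioxidant enzymes had 61 rows at BBCH 09 and 50 at BBCH 05 (1.09, 0.74 to 1.62), among them catalase with 9 and 10 rows and glutathione peroxidase with 8 and 5.

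The receptor kinases had 401 rows at BBCH 09 and 289 at BBCH 05, a ratio of 1.24 (1.07 to 1.45), with 329 and 292 rows at BBCH 07 and 08. The difference was largest by number in the cysteine-rich receptor kinases, a family expanded in plants and linked to pathogen and oxidative signals, which had 155 rows at BBCH 09 and 102 at BBCH 05 (1.36, 1.05 to 1.76). Of these, kinase 10 had 33 and 22 rows, kinase 26 had 16 and 8, and kinase 39 had 9 and 2. The receptor kinases with leucine-rich repeats, which include receptors for hormones and peptides, had 126 rows at BBCH 09 and 108 at BBCH 05, a ratio of 1.04 (0.80 to 1.36). Lectin receptor kinases had 28 rows at BBCH 09 and 13 at BBCH 05 (1.89, 0.97 to 4.06), but 22 and 28 at the stages between. TMKL1, a kinase-like protein of the cell surface, had 9 rows at BBCH 09, 1 row at BBCH 05 and 2 rows at each stage between. Among rows of 200 amino acids or more the direction was lost for TMKL1, with 1 row at both ends (0.95), and turned for cysteine-rich receptor kinase 39, with 1 row at BBCH 09 and 2 at BBCH 05 (0.57).

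The disease resistance proteins were the largest of the 4 lists, with 558 rows at BBCH 09 and 412 at BBCH 05 and a ratio of 1.21 (1.07 to 1.38). At BBCH 07 and 08 they had 445 and 423 rows. Homologues of RPM1 had 157 rows at BBCH 09 and 105 at BBCH 05 (1.34, 1.04 to 1.73), and those of RPP13 had 162 and 109 (1.33, 1.04 to 1.71). Both are NLRs that were described in *Arabidopsis*, RPM1 against bacteria and RPP13 against downy mildew. The RGA homologues, NLRs named after resistance gene analogues, had 154 rows at BBCH 09 and 137 at BBCH 05, a ratio of 1.01 (0.79 to 1.28). RGA2 had 40 rows at both ends and RGA4 had 47 and 46. Chitinases, thaumatins and pathogenesis-related proteins, which act on the microbe directly, had 14 rows at BBCH 09 and 10 at BBCH 05 (1.24, 0.52 to 3.15).

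**Figure D2:**
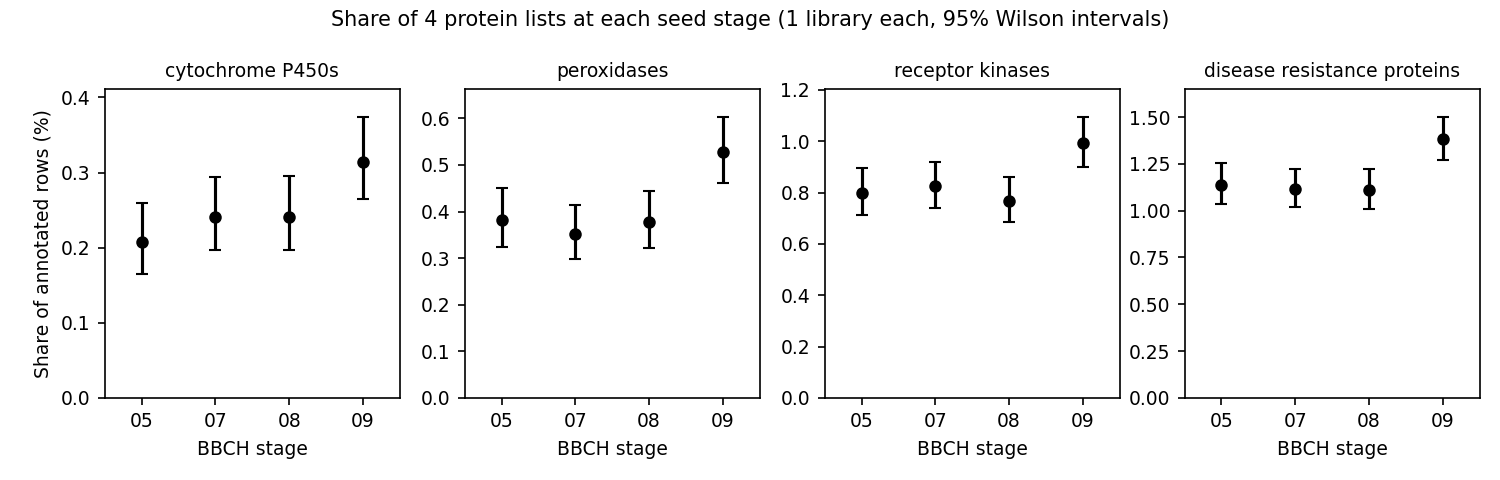
Share of annotated rows (%) of the 4 lists at each seed stage in order of development, 1 library each, with 95% Wilson intervals. BBCH 09 is the highest of the 4 stages in every list, and the earlier stages lie within each other's intervals.

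The share at BBCH 09 was the highest of the seed stages in each of the 4 lists, while the order of the 3 earlier stages differed from list to list. For peroxidases the Wilson interval at BBCH 09 (0.461% to 0.603%) lay above that at each earlier stage, and the same held for disease resistance proteins (1.27% to 1.5%). For P450s the interval at BBCH 09 (0.264% to 0.374%) overlapped those at BBCH 07 and 08, and for receptor kinases (0.901% to 1.09%) it overlapped that at BBCH 07.

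The 4 lists rested largely on short peptides, and the length of the rows moved with the stage. Peptides under 200 amino acids made up 52.7% of all rows at BBCH 09 and 49.8% at BBCH 05. In the paper's check against single-copy plant genes, the BBCH 09 assembly had more fragmented and fewer complete genes than that of BBCH 05. The assemblies of the stages between had more fragmented genes than either end. Whether such fragmentation bears on the row counts of the 4 lists was not tested. The P450s had 94 short rows at BBCH 09 and 47 at BBCH 05, and 33 and 28 rows of 200 amino acids or more. The ratio of the longer P450 rows was 1.12 (0.66 to 1.92), against 1.68 (1.18 to 2.46) for the short ones. The longer rows gave ratios of 1.42 (0.96 to 2.14) for peroxidases, 1.17 (0.90 to 1.54) for receptor kinases and 1.26 (0.999 to 1.61) for disease resistance proteins. The direction was thus the same among longer rows in all 4 lists, and no interval lay wholly above 1 on these fewer rows. Counted as different proteins, P450s gave 1.62 (1.12 to 2.41) and peroxidases 1.35 (1.03 to 1.77), while the intervals of receptor kinases (0.99 to 1.48) and disease resistance proteins (0.93 to 1.35) held 1.

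**Figure D3:**
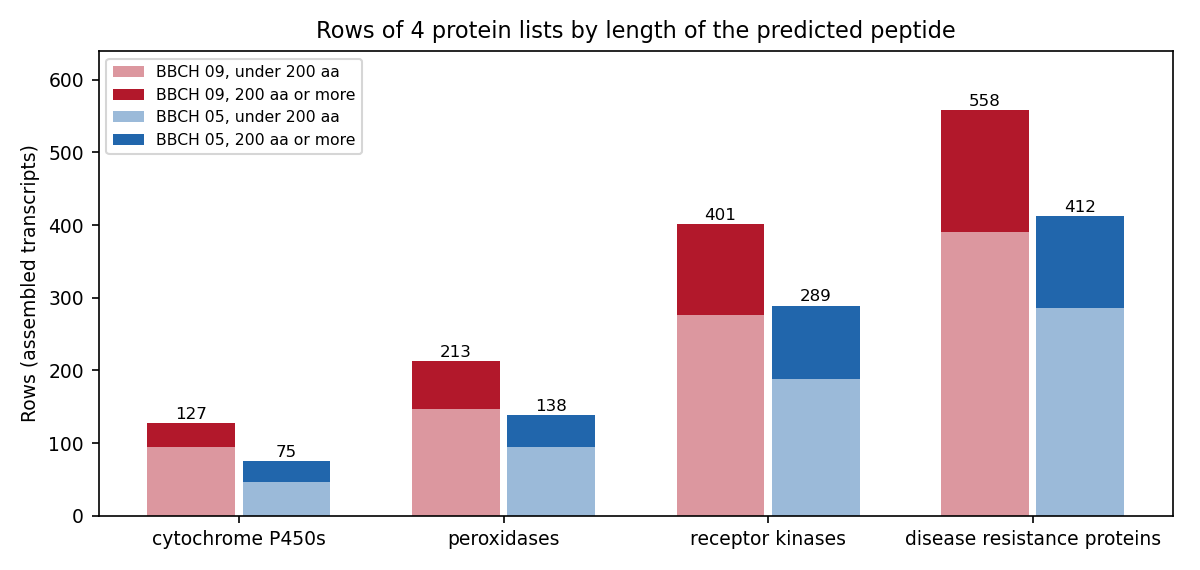
Rows of the 4 lists at BBCH 09 (red, left) and BBCH 05 (blue, right), with the total above each bar. The pale part is rows with a peptide under 200 amino acids and the dark part rows of 200 or more, and the pale part is the larger one in every bar.

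The GO names gave these families a second count, which also takes in rows with no informative description. ADP binding, the name given to the nucleotide-binding site of NLRs, was on 1007 rows at BBCH 09 and 780 at BBCH 05 (1.16, 1.05 to 1.27), and 570 and 447 of these had no informative description. Among rows of 200 amino acids or more it was on 314 and 237 (1.26, 1.06 to 1.5). Protein kinase activity was on 1348 and 1038 rows (1.16, 1.07 to 1.26). Monooxygenase activity, which covers P450s, was on 397 and 293 (1.21, 1.04 to 1.42), and peroxidase activity on 234 and 164 (1.28, 1.04 to 1.57). For long rows alone, protein kinase activity gave 1.13 (1.01 to 1.27), monooxygenase activity 1.28 (1.01 to 1.63) and peroxidase activity 1.33 (0.95 to 1.90). The narrower name protein serine/threonine kinase activity was on 1071 and 857 rows (1.12, 1.02 to 1.23), but gave 1.02 (0.89 to 1.17) for long rows. These names and the lists count many of the same rows and are not separate evidence.

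Among all GO names, 21 (1.31%) had an interval wholly above 1 and 2 (0.125%) one wholly below 1. Besides the names above and their parents, those above 1 included acyl group transfer, on 60 rows at BBCH 09 and 33 at BBCH 05 (1.62, 1.05 to 2.57). Serine-type endopeptidase activity was on 193 and 137 rows (1.26, 1.01 to 1.58), and cysteine-type peptidase activity on 151 and 100 (1.35, 1.04 to 1.76). Of the cysteine-type peptidase rows, 20 at BBCH 09 and 3 at BBCH 05 had a best homologue outside the grasses. The names below 1 were response to brassinosteroid, on 4 rows at BBCH 09 and 14 at BBCH 05 (0.28, 0.06 to 0.81), and ubiquitin-protein transferase activity, on 188 and 211 rows (0.80, 0.65 to 0.98). Brassinosteroids are steroid hormones of cell elongation, and the stages between gave 7 and 10 rows for their response. Of these brassinosteroid rows, 3 at BBCH 09 and 11 at BBCH 05 had no informative description. For enzyme codes, 3 (1.42%) had an interval above 1 and 0 (0.0%) one below it. The 3 were peroxidase with 214 and 149 rows, serine endopeptidases with 175 and 122, and D-arabinono-1,4-lactone oxidase with 13 and 3. For descriptions the counts were 6 (2.06%) above 1 and 0 (0.0%) below it.

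Among stored reserves, the globulins were on fewer rows at BBCH 09. The seed storage proteins had 7 rows at BBCH 09 and 14 at BBCH 05, with 14 and 8 rows at BBCH 07 and 08 and 3 to 5 in the organs of grown plants. The ratio was 0.46, with an interval of 0.15 to 1.19 that holds 1. No storage row at BBCH 09 had a peptide of 200 amino acids or more, whereas 5 at BBCH 05 had. Rows named 11S globulin, the main legumin-type storage protein of oat grain, numbered 0 at BBCH 09 and 6 at BBCH 05. Their share was 2.23-fold lower with 0 set to 3 rows, and the interval of the ratio was 0 to 0.76. These rows numbered 3 and 1 at the stages between and 0 in leaf, root and stem. A count of 0 at BBCH 09 allows a share of up to 0.00743% of rows. Rows of 11S or 12S globulins under any name numbered 3 at BBCH 09 and 8 at BBCH 05. Other storage names were on 0 to 3 rows at each end, such as globulin-1 with 2 and 3 rows. Nutrient reservoir activity, a GO name that is also given to germin-like and other cupin proteins, was on 39 rows at BBCH 09 and 41 at BBCH 05 (0.85, 0.54 to 1.35).

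One enzyme code and its GO name, catechol 2,3-dioxygenase, were on 0 rows at BBCH 09 and 5 rows at BBCH 05. All 5 were 11S globulin rows, so this loss was the globulin loss counted again under an enzyme name that the annotation gave to 1 globulin homologue. The same rows made up 5 of the 10 rows with ferrous iron binding at BBCH 05, a GO name on 4 rows at BBCH 09.

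The intervals of starch breakdown and of lipid mobilization held 1. Those of the serine-type and cysteine-type peptidase names given above lay above 1 over all rows. Among longer rows these peptidase intervals held 1 as well, at 1.28 (0.94 to 1.75) and 1.13 (0.75 to 1.70). Aspartic-type endopeptidase activity, on 139 rows at BBCH 09 and 128 at BBCH 05, gave 0.97 (0.76 to 1.25). Serine-type carboxypeptidase activity, on 75 and 69 rows, gave 0.97 (0.69 to 1.37). Starch breakdown had 33 rows at BBCH 09 and 37 at BBCH 05 (0.80, 0.48 to 1.31). Alpha-amylases, which the aleurone secretes to cut starch, had 10 rows at BBCH 09 and 14 at BBCH 05, with 12 and 15 at the stages between. Alpha-glucan phosphorylase had 7 and 3 rows and alpha-glucosidase 2 and 5. Lipid mobilization and the glyoxylate cycle, which turn oil into sugar, had 58 rows at BBCH 09 and 52 at BBCH 05 (1.00, 0.67 to 1.48). Triglyceride lipase activity was nevertheless on 3 rows at BBCH 09 and 7 at BBCH 05, a ratio of 0.42 (0.06 to 1.68). Oleosins, the coat proteins of oil bodies, had 3 rows at each end, and the list of late embryogenesis and oil body proteins had 13 and 14. The inhibitors of proteases and amylases had 12 and 14 rows, with 4 and 6 for the Bowman-Birk trypsin inhibitor.

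Subtilisin-like proteases, serine endopeptidases of the cell wall, were on more rows at the end of germination. They had 25 rows at BBCH 09 and 10 rows at BBCH 05, a ratio of 2.17 (1.04 to 5.22). At BBCH 07 and 08 they had 19 and 20 rows. Among rows of 200 amino acids or more they had 12 at BBCH 09 and 4 at BBCH 05, a ratio of 2.64. The interval for these longer rows, 0.86 to 12.1, held 1. Cucumisin, a subtilase named after melon fruit, went the other way on few rows, with 3 at BBCH 09 and 7 at BBCH 05. All subtilases together had 30 and 20 rows (1.33, 0.74 to 2.49), and the whole protease list had 175 and 152 (1.03, 0.82 to 1.29).

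Within a group of acyltransferases, different names were found at the ends. The descriptions omega-hydroxypalmitate O-feruloyl transferase and anthranilate N-benzoyltransferase belong to the BAHD family, whose members join feruloyl and benzoyl groups to fatty acids, amines and other acceptors. The feruloyl transferase, an enzyme of suberin, was on 0 rows at BBCH 09 and 8 rows at BBCH 05. At BBCH 07 and 08 it was on 2 and 0 rows. Its share was 2.98-fold lower with 0 set to 3 rows, and the interval of its ratio was 0 to 0.52. Anthranilate N-benzoyltransferase 3 was on 0 rows at BBCH 09 and 5 at BBCH 05, but on 2 and 3 rows at the stages between. Its share was 1.86-fold lower with 0 set to 3 rows, and the interval of its ratio was 0 to 0.98. Another BAHD name, deoxytaxol N-benzoyltransferase, was on 12 rows at BBCH 09 and 5 at BBCH 05. All feruloyl and benzoyl transferases together had 28 rows at BBCH 09 and 31 at BBCH 05 (0.81, 0.47 to 1.39). Such a name depends on which homologue happened to be the best match, and it does not by itself fix the substrate in *A. spica-venti*.

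**Figure D4:**
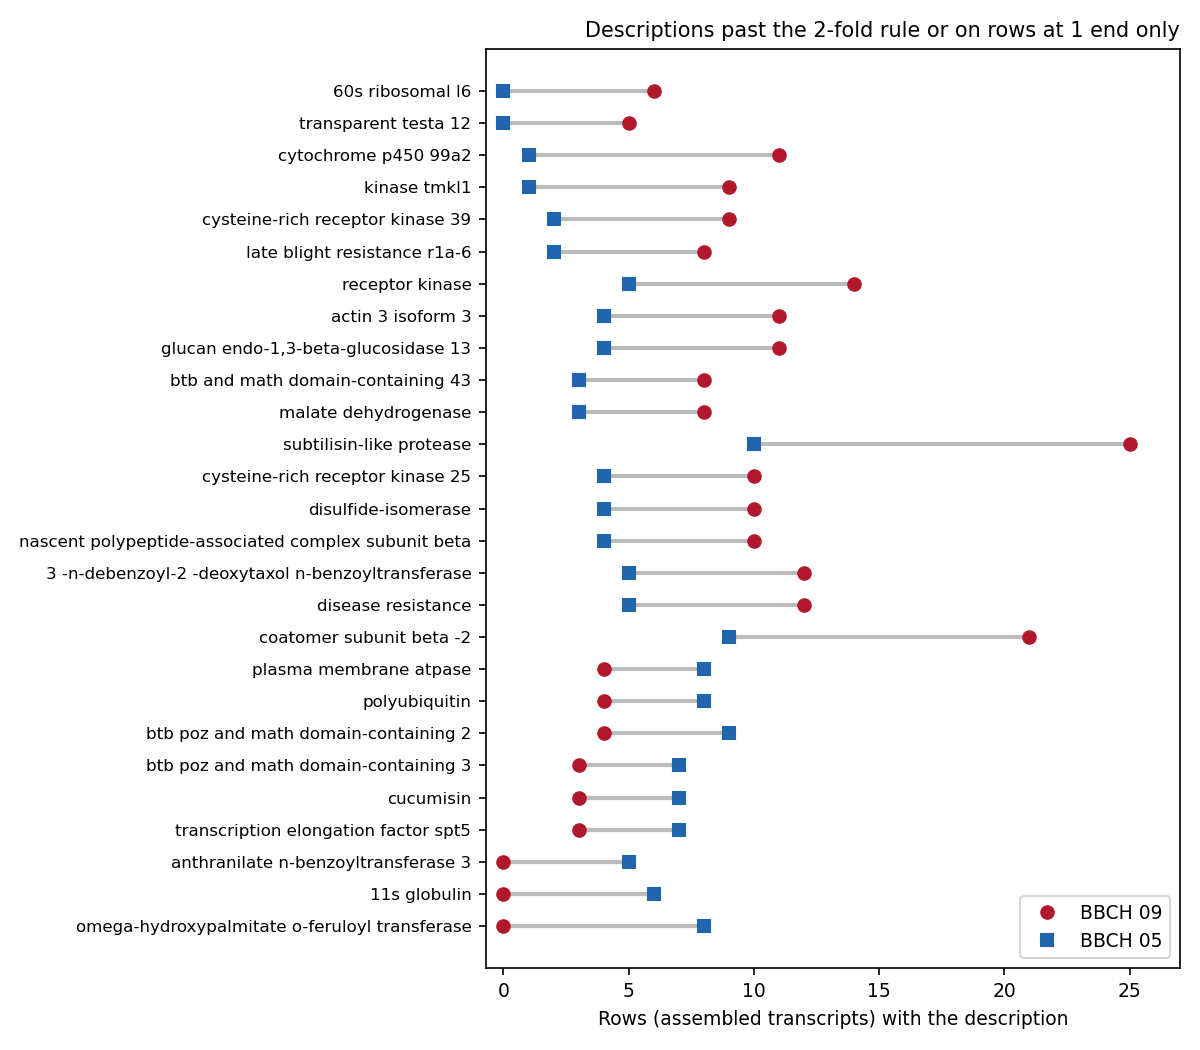
Rows with each informative description that passed the 2-fold rule or was on at least 5 rows at 1 end and 0 at the other, at BBCH 09 (red circles) and BBCH 05 (blue squares). The highest, subtilisin-like protease, had 25 rows at BBCH 09 and 10 at BBCH 05, and 60S ribosomal L6 and 11S globulin were on rows at 1 end only.

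A pair of descriptions was found at BBCH 09 and not at BBCH 05. The 60S ribosomal protein L6 was on 6 rows at BBCH 09 and 0 at BBCH 05, with 2 and 3 rows at the stages between. Its share was 1.79-fold higher with 0 set to 3 rows, and the interval of its ratio ran from 1.05 with no upper limit. Of the 6 rows, 3 had their best homologue outside the grasses. TRANSPARENT TESTA 12 is a transporter of the MATE family that in *Arabidopsis* loads flavonoids into the vacuole of the seed coat. It was on 5 rows at BBCH 09 and 0 at BBCH 05, 1.49-fold higher with 0 set to 3 rows. The interval of its ratio, from 0.82 with no upper limit, held 1. MATE transporters as a family had 94 rows at BBCH 09 and 80 at BBCH 05 (1.05, 0.77 to 1.44). One GO name, cellular component organization or biogenesis, was on 8 rows at BBCH 09 and 0 at BBCH 05. At the level of single database proteins on at least 5 rows, 17 were gained and 6 lost. These were out of 29284 proteins matched at BBCH 09 and 26876 at BBCH 05, on 40398 and 36168 rows. Of the gained and of the lost proteins, 2 each had an informative name. The gained ones were an ABC transporter of the C family, member 14, and coatomer subunit beta-1, each on 5 rows at BBCH 09. The name of that ABC transporter was not new, with 9 rows at BBCH 09 and 4 at BBCH 05 over all its database proteins (1.89, 0.56 to 8.95). The lost ones were the globulin and the feruloyl transferase above, on 5 and 6 rows at BBCH 05.

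Further descriptions passed the rule of size on few rows, with intervals that held 1. Glucan endo-1,3-beta-glucosidase 13, an enzyme that cuts callose and fungal wall glucans, had 11 rows at BBCH 09 and 4 at BBCH 05 (2.29, 0.73 to 10.6), with 2 and 3 rows at the stages between. Late blight resistance R1A-6, an NLR first named in potato relatives, had 8 and 2. Coatomer subunit beta-2, part of the coat of Golgi vesicles, had 21 rows at BBCH 09 and 9 at BBCH 05 (2.03, 0.92 to 5.18). Its count was 17 and 15 at BBCH 07 and 08, 21 in root and 1 in leaf. Malate dehydrogenase had 8 and 3 rows. Disulfide-isomerase, which folds secreted proteins, had 10 rows at BBCH 09 and 4 at BBCH 05, but 5 of the 10 and 0 of the 4 had a best homologue outside the grasses. Actin 3 isoform 3 had 11 and 4 rows, all with such a homologue. Counted as different proteins, actin 3 isoform 3 and R1A-6 each had a ratio of 0.92.

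On the lower side, the plasma membrane ATPase, the proton pump that drives nutrient uptake and wall acidification, had 4 rows at BBCH 09 and 8 at BBCH 05 (0.47, 0.10 to 1.67). Polyubiquitin, the precursor of the tag for protein breakdown, also had 4 and 8, but 2 and 0 among rows of 200 amino acids or more. The BTB/POZ and MATH proteins 2 and 3, substrate adaptors of ubiquitin ligases, had 4 and 9 rows and 3 and 7 rows, while BTB and MATH protein 43 had 8 and 3 (0.92 counted as different proteins). The transcription elongation factor SPT5 had 3 rows at BBCH 09 and 7 at BBCH 05. The list of the proteasome and ubiquitin as a whole had 273 and 275 rows, a ratio of 0.89 (0.75 to 1.05).

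The GO names with the largest ratios were also on few rows. D-arabinono-1,4-lactone oxidase activity, which the annotation gives to relatives of the enzymes that finish ascorbate synthesis, was on 13 rows at BBCH 09 and 3 at BBCH 05 (3.45, 1.07 to 21.2), and on 10 and 12 rows at the stages between. None of its rows had an informative description. Lysosome and receptor serine/threonine kinase binding were each on 8 and 2 rows, pyruvate dehydrogenase activity on 10 and 3, and lipid biosynthetic process on 13 and 4. Of the lysosome and the pyruvate dehydrogenase rows, 3 each at BBCH 09 and 0 at BBCH 05 had a homologue outside the grasses. Among rows of 200 amino acids or more, lysosome was on 2 rows at both ends and pyruvate dehydrogenase activity on 2 at BBCH 09 and 3 at BBCH 05. Protein-disulfide reductase activity was on 13 rows at BBCH 09 and 4 at BBCH 05, of which 5 and 1 had a homologue outside the grasses, and on 2 longer rows at both ends. DNA-3-methyladenine glycosylase, a base excision repair enzyme, was on 9 and 3 rows.

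Among GO names with the smaller share at BBCH 09, the Mre11 complex, which processes double-strand breaks in DNA, was on 4 rows at BBCH 09 and 11 at BBCH 05 (0.35, 0.08 to 1.1), with 9 and 7 at the stages between. Rows named Mre11 and rows named Rad50 each numbered 2 at BBCH 09 and 4 at BBCH 05. Hydroxymethylglutaryl-CoA reductase, the committed step of the mevalonate route to sterols, was on 4 and 8 rows. Adenosine kinase, which salvages adenosine to AMP, was on 3 and 7, as were the 90S preribosome and radial pattern formation. Sucrose transport was on 4 rows at BBCH 09 and 8 at BBCH 05.

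Growth of the wall and cell division gave ratios near or slightly above 1. Wall-loosening proteins had 120 rows at BBCH 09 and 96 at BBCH 05 (1.12, 0.85 to 1.48), with 83 and 78 at the stages between. They included pectinesterases with 33 and 28 rows, xyloglucan endotransglucosylases with 34 and 24, and expansins, which let the wall creep under turgor, with 14 and 9. Wall synthesis had 58 and 44 rows (1.18, 0.78 to 1.79), and cellulose synthases 36 and 26. Phenylalanine ammonia-lyase, the entry to lignin and other phenylpropanoids, had 19 rows at BBCH 09 and 25 at BBCH 05 (0.68), and laccase 12 and 9. DNA replication, histones and the cell cycle had 100 and 78 rows (1.15, 0.85 to 1.56), with 30 and 23 for histones and 18 and 16 for cyclins. Kinesins had 117 and 98 rows and tubulins 11 at both ends. Ribosomal proteins had 169 rows at BBCH 09 and 150 at BBCH 05 (1.01, 0.80 to 1.27), against 118 and 131 at the stages between.

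The markers chosen for the tissues of the seedling were present at both ends. Proteins of the light reactions had 43 rows at BBCH 09 and 36 at BBCH 05 (1.07, 0.67 to 1.71), of which chlorophyll a-b binding proteins had 19 and 15. Transcripts of photosynthetic proteins were thus already assembled when only the radicle was out. Such rows do not by themselves mark a green shoot, since root of grown plants had 41 light-reaction rows and leaf 56. Chlorophyll a-b binding proteins had 17 rows in root and 28 in leaf. Carbon fixation and photorespiration had 17 and 13 rows, with 7 and 3 for carbonic anhydrase. Aquaporins and nutrient transporters, taken for the root, had 62 rows at BBCH 09 and 66 at BBCH 05 (0.84, 0.58 to 1.21), of which potassium transporters had 31 and 32. The peroxidases, also taken for the root, went the other way, with 213 and 138 rows (1.38, 1.11 to 1.72).

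Of the hormone names, response to brassinosteroid had the smaller share at BBCH 09 over all rows, while among longer rows its interval held 1, as given above. Auxin biosynthetic process was on 10 rows at BBCH 09 and 4 at BBCH 05 (2.09, 0.65 to 9.78). Auxin response factors had 44 rows at BBCH 09 and 37 at BBCH 05, and auxin-responsive proteins 45 and 34. Gibberellin 3-beta-dioxygenase 1, which makes active gibberellin, had 5 and 4 rows, and gibberellin 2-beta-dioxygenase 8, which inactivates it, 2 and 4. HVA22, an abscisic acid-induced protein known from barley aleurone, had 8 rows at both ends. The GO names seed germination, with 58 and 57 rows, and seed dormancy process, with 47 and 47, had ratios of 0.91 (0.62 to 1.34) and 0.90 (0.58 to 1.37). Transcription factors had 239 and 227 rows (0.94, 0.78 to 1.14). Of 44 GO names picked for germination and defence with their values known, 7 had an interval wholly above 1, 1 had one wholly below 1 and 36 had one that held 1. Over all 1604 names, 1.31% lay above 1 and 0.125% below it. The median ratio was 0.99 for the 44 names and 0.98 for all.

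The enzymes hit by herbicides had 23 rows at BBCH 09 and 19 at BBCH 05 (1.08, 0.56 to 2.1). Glutamine synthetase, the target of glufosinate, had 13 and 9 rows. Acetolactate synthase (ALS) had 4 and 7, and 3-phosphoshikimate 1-carboxyvinyltransferase, the target of glyphosate, had 4 and 1. Acetyl-CoA carboxylase (ACCase) had 1 row at BBCH 09 and 2 at BBCH 05. Glutathione S-transferases, which with P450s detoxify herbicides, had 19 rows at BBCH 09 and 21 at BBCH 05 (0.81, 0.41 to 1.58), and GSTU6 had 5 and 6. No interval of these enzymes lay on 1 side of 1.

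The different database proteins matched at the ends overlapped by about the same share as those of other stage pairs. BBCH 09 matched 29284 proteins and BBCH 05 matched 26876, and the 19393 shared ones were 66.2% of those at BBCH 09 and 72.2% of those at BBCH 05. Proteins found at 1 end only were mostly on 1 row, 88.6% of the 9891 at BBCH 09 and 91.0% of the 7483 at BBCH 05. Their median peptide had 147 and 148 amino acids, against 215 and 224 for the shared proteins. Of the proteins at 1 end only, 48.8% at BBCH 09 and 51.1% at BBCH 05 were found at BBCH 07 or 08. A protein absent from 1 end was therefore often a short, singly matched row that a neighbouring stage could hold.

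The libraries also differed in the species codes of the best homologues. A code names the organism of the homologue, and whether such transcripts came from another organism was not tested. The 9 green-algal codes were on 504 rows at BBCH 09 and 119 rows at BBCH 05, and were left out. Among the rows kept, 1788 (4.43%) at BBCH 09 and 1184 (3.27%) at BBCH 05 had a best homologue outside the 64 species codes taken as grasses, a ratio of 1.35 (1.26 to 1.46). The share was 2.89% and 3.16% at BBCH 07 and 08, and 4.58% in root. Moss, clubmoss and further algal codes were among them. PHYPA was on 80 rows at BBCH 09 and 19 at BBCH 05, SELML on 68 and 15, and OSTTA, an alga that the rule keeps, on 27 and 4. The 4 families above held few such rows. They numbered 2, 1, 4 and 5 at BBCH 09 and 0, 3, 3 and 5 at BBCH 05 for P450s, peroxidases, receptor kinases and disease resistance proteins. With grass codes alone, the ratio was 1.51 for P450s, 1.42 for peroxidases, 1.26 for receptor kinases and 1.23 for disease resistance proteins.

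**Figure D5:**
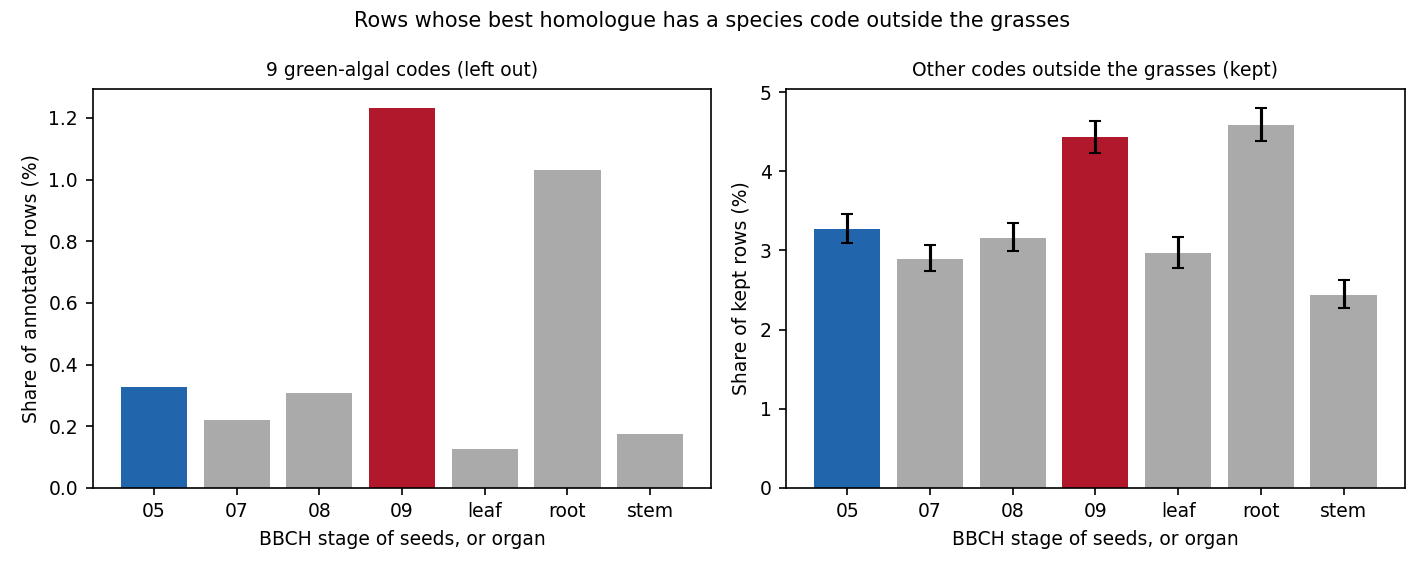
Share of rows (%) in each library whose best homologue has 1 of 9 green-algal codes (left, of all annotated rows) or another code outside the grasses (right, of the rows kept, with 95% Wilson intervals). BBCH 09 (red) and root are the highest in both panels, and BBCH 05 (blue) had 119 algal rows against 504 at BBCH 09.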

How the data were processed

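Of 7 libraries, the seed libraries BBCH 09 and BBCH 05 were compared. The authors clipped reads with Trimmomatic (version not given in the sources used here), normalized depth by k-mers, assembled each library with Trinity, kept the longest isoform, merged similar contigs with CD-HIT-EST, translated them with TransDecoder, searched plant proteins of UniProtKB with blastp and annotated with Blast2GO. The deposited e-value is a score from the authors' search. The deposited similarity of a match is in percent. There were 0 columns without a sample. Rows with an e-value of at most 0.1 and none of the 9 algal codes were kept. Informative descriptions are those left without predicted, uncharacterized, hypothetical and unnamed proteins. A family was lost or gained on at least 5 rows at 1 end and 0 at the other, and 0 was set to a floor of 3 rows for folds. These folds take the other count as exact and are not lower limits.

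Named were the 10 largest ratios in each direction per kind of item, lost and gained families, the 4 most frequent descriptions per list, herbicide targets, CYP89A2, CYP71D7 and GSTF1, whose count was too low to compare. Members and lists were chosen with earlier results of these data known. The words of the lists were fitted to the deposited descriptions, and subfamilies, GO names for germination, the split by peptide length, grass codes and other names were chosen after values were seen. Alternatives were other e-value limits, counting units, denominators, added counts and row minimums, longer peptides and algae kept. The ratios were tested on simulated counts drawn as independent rows, which does not cover several rows assembled from the same gene. Python 3.11.15, NumPy 2.4.6, pandas 2.3.3, SciPy 1.17.1 and matplotlib 3.10.9 were used.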

Additional observations from a re-analysis of the deposited data

Results flagged for a closer look

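The rows left out of the comparison held a signal of their own. At BBCH 09, 504 rows (1.23% of annotated rows) had a best homologue with 1 of the 9 green-algal codes, against 119 rows (0.328%) at BBCH 05, a ratio of 3.75 (3.07 to 4.63). There were 88 and 118 such rows at BBCH 07 and 08, 400 in root, 36 in leaf and 51 in stem. The counts at an e-value of at most 1e-10 were 313 at BBCH 09 and 58 at BBCH 05. The median peptide of these rows had 126 amino acids at BBCH 09 and 120 at BBCH 05, and the median similarity was 61.5% and 57%. With 1 library per stage, a difference between stages and one between libraries cannot be told apart.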

How the results depend on the processing

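No paired analysis was possible because each stage had 1 library, and for the same reason no library could be left out. With peptides of at least 200 amino acids, a split of the rows that leaves fewer of them, 16 GO names, 2 enzyme codes and 4 descriptions passed the 2-fold rule in place of 38, 6 and 22, 2 families in place of 8 were lost or gained, 0 of 36 lists in place of 4 had an interval off 1, and 2 in place of 42 named items kept the rule. With distinct proteins in place of rows these counts were 12, 1, 2, 2, 2 and 6. With a minimum of 20 rows, 2 GO names, 0 enzyme codes and 2 descriptions passed, and with at least 10 rows at 1 end 0 families were lost or gained. The share of proteins at BBCH 09 also found at BBCH 05, 66.2%, was 74.5% by description, 67.6% at an e-value of at most 1e-05, 68.3% at 1e-10 and 68.5% with grass codes only, an alternative added after seeing the data. Directions turned on few rows. With longer peptides the ratio was 0.95 for lysosome, protein-disulfide reductase activity and its enzyme code, acetyl-CoA biosynthetic process from pyruvate and TMKL1, 0.68 for pyruvate dehydrogenase as GO name and enzyme code, 0.57 for cysteine-rich receptor kinase 39 and 4.75 for polyubiquitin. With distinct proteins it was 0.92 for the protein-disulfide reductase code, late blight resistance R1A-6, actin 3 isoform 3 and BTB and MATH protein 43. The cause was not tested. The 4 lists named in the report kept ratios above 1 under all 9 alternatives, though not always their interval. The alternatives recount rows of the same libraries, and the 4 lists were named for intervals above 1, so this is not separate evidence.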

Other observations

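The lists not described above had intervals that held 1. Sugar, amino acid and peptide transporters had 55 rows at BBCH 09 and 48 at BBCH 05 (1.02, 0.68 to 1.54), and ABC transporters 102 and 80 (1.14, 0.84 to 1.55). Glycosyltransferases had 287 and 239 rows (1.07, 0.90 to 1.28). Heat shock proteins and chaperones had 75 rows at both ends. Mobile elements had 216 and 174 rows (1.11, 0.91 to 1.36), with 141 and 112 for retrotransposons and 51 and 48 for DNA transposons. Starch synthesis had 31 and 29 rows, pentatricopeptide repeat proteins 26 and 19, and translation factors 75 and 69. Formins, which nucleate actin filaments, had 36 rows at both ends, and Clp proteases 31 and 33.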
